A study of Mus musculus with 96 samples.

Results

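Tnf, Il6 and Il10 are 3 of the 23481 genes counted in bone marrow derived macrophages that received a small molecule before lipopolysaccharide (LPS). They were chosen by name as the main inflammatory cytokines and the main anti-inflammatory cytokine of such cells, and all 3 passed the filter on low counts that left 4963 genes for testing. The 96 libraries fall into 12 groups of 8, each with 4 wells on each of 2 plates. Per the labels, every group came from wild-type male C57BL/6 mice aged 8 weeks, with cells grown in conditioned medium containing MCSF. The 10 compound groups are labelled pGE2, Torin, tBHQ, BrefA, Halofuginone, Dexa, Tunicamycin, Caspase-1, Baflo and ZVAD. Each compound was given 30 min before LPS, and cells were lysed 4 h after LPS. The DMSO group received the vehicle and LPS in the same way, and the NoStim group received no LPS. On both plates the NoStim wells carry the letters A to D and all wells with LPS carry E to H. Differences from NoStim, called LPS changes below, therefore cannot be told apart from differences between these well letters. The labels state no dose, no compound was given without LPS, and the vehicle of NoStim wells is not stated. The labels abbreviate most compounds and their spelling is kept. Nothing states that libraries came from separate cultures or animals, so p-values measure the spread between these libraries, which may be partly technical. The labels do not say whether wells with the same letter and group on the 2 plates are separate cultures or 1 lysate prepared again. If they are 1 lysate, each group holds 4 independent samples and the p-values from 8 libraries are too small, and the calls of named genes and ratios that are lost when those wells are summed are given beside the results.

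LPS, a cell wall component of Gram-negative bacteria, is sensed by Toll-like receptor 4, and the NF-kB and MAP kinase pathways then switch on cytokine genes in macrophages. Tnf encodes tumour necrosis factor, an early inflammatory cytokine whose messenger is made within minutes. Il6 encodes interleukin-6, which depends on factors made later in the response and drives fever, the acute phase response and lymphocyte activation. Il10 encodes interleukin-10, which acts back on macrophages through Stat3 and restrains the production of the other cytokines. Tunicamycin blocks N-linked glycosylation, halofuginone inhibits prolyl-tRNA synthetase, and Torin is the name of inhibitors of the mTOR kinase.

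In the mm10 build, Tnf (ENSMUSG00000024401.14) lies on chromosome 17 from 35199381 to 35202007 on the minus strand and has 4 exons. Il6 (ENSMUSG00000025746.11) lies on chromosome 5 from 30013114 to 30019981 on the plus strand and has 5 exons. Il10 (ENSMUSG00000016529.5) lies on chromosome 1 from 131019845 to 131024974 on the plus strand and has 5 exons. In the GENCODE M21 annotation no other gene overlaps any of them. The libraries read the 3′ ends of transcripts, and AU-rich elements in the 3′ untranslated region (UTR) are where the decay factor Zfp36 and its relatives bind cytokine messengers. The heptamer TATTTAT occurred 8 times in the 764-base 3′ UTR of Tnf, 4 times in the 706 bases of Il10 and once in the 427 bases of Il6. It occurred at least once in 23.3% of 19189 genes with an annotated 3′ UTR, and as often as in Tnf in 0.12% and as in Il10 in 1.17%. A stretch of 30 bases with the most ATTTA pentamers is shown for each gene, the first where several tie. They are shown because these genes are compared below with the genes for messenger decay. The stretches hold 5 of 8 pentamers for Tnf, 2 of 6 for Il6 and 1 of 6 for Il10. No stretch of this length held more than 1 in Il10, so the Il10 stretch marks no cluster. Capitals mark the pentamers, and the stretches are chr17:35199678-35199707 (minus strand), chr5:30019684-30019713 and chr1:131024384-131024413.
Tnf: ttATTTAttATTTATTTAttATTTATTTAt
Il6: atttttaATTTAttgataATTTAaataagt
Il10: ctctctccgaaatATTTAttacctctgata

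The 250 bases before the start of Tnf and of Il6 are shown beside the results below, where the 2 genes moved in opposite directions with pGE2, BrefA and Halofuginone. Whether these bases bear on those changes was not tested. They come from RefSeq (build GRCm38.p6), at chr17:35202008-35202257 (minus strand) and chr5:30012864-30013113 (plus strand). The promoter set used held no entry for Il10, so no bases before its start are shown.
Tnf: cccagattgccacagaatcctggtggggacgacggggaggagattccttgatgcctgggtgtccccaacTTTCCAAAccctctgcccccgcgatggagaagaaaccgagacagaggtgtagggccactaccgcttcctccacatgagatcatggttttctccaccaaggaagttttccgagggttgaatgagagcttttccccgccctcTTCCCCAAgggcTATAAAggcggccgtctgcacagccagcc
Il6: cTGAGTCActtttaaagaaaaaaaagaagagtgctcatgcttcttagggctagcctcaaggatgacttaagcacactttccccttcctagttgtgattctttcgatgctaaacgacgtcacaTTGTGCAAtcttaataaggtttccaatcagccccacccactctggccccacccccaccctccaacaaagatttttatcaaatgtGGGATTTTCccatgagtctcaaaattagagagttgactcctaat
Capitals mark matches, on either strand, to patterns for NF-kB (GGGNNTTNC), AP-1 (TGANTCA), C/EBP (TTNNGNAA), a full CRE (TGACGTCA) and a TATA box (TATAAA). The Tnf window held C/EBP matches that begin 181 and 41 bases before the start and a TATA box match at 29 bases. The Il6 window held an AP-1 match at 249 bases, a C/EBP match at 128 bases and an NF-kB match at 44 bases, and the core of a CRE (TGACG) at 135 bases, left in lower case. Among 32851 mouse promoter windows of the same length, 13% held the NF-kB pattern, 6.75% AP-1, 36.8% C/EBP, 1.55% the full CRE, 17.8% the CRE core and 12.4% the TATA box. Patterns for STAT (TTCNNNGAA, 7.02% of windows) and for interferon response elements (AAANNGAAA, 9.37%) were also searched and had no match in either window. The matches overlap none of one another and are descriptions of letters, with no binding measured here.

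Total counts per library ran from 80196 to 136526 in Halofuginone wells and from 148284 to 379198 in the other groups. The ribosomal precursor Rn45s took 39.0% to 49.1% of Halofuginone counts and at most 30.9% in any other group. Values are given as CPM (counts scaled to a library total of 1e+06, after TMM scaling), so 1 count was worth a median of 15.1 CPM in Halofuginone, 3.79 CPM in DMSO and 3.36 CPM in NoStim libraries. Of 8 macrophage markers, 7 were in the table and all had counts, led by Cd14, Csf1r and Lyz2, and their summed level ran from 1201 to 4087 CPM per library. Their sum was 2950 to 4087 CPM in pGE2, against 1399 to 1834 CPM in DMSO libraries, and the part of this difference in the cytokine values was not tested. Lists for 7 other cell types were low, the most abundant being the dendritic cell list at a median of 25.5 CPM. Over all 96 libraries, 4 of 6 neutrophil markers in the table had counts (99 in all, none for Mpo and Elane), as did 4 of 6 T cell markers (49 in all, none for Cd3e) and 1 of 5 mast cell markers (4 in all, none for Cpa3), against 46578 counts of macrophage markers. In bulk libraries, fewer cells of a type and less RNA per cell cannot be told apart.

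**Figure D1:**
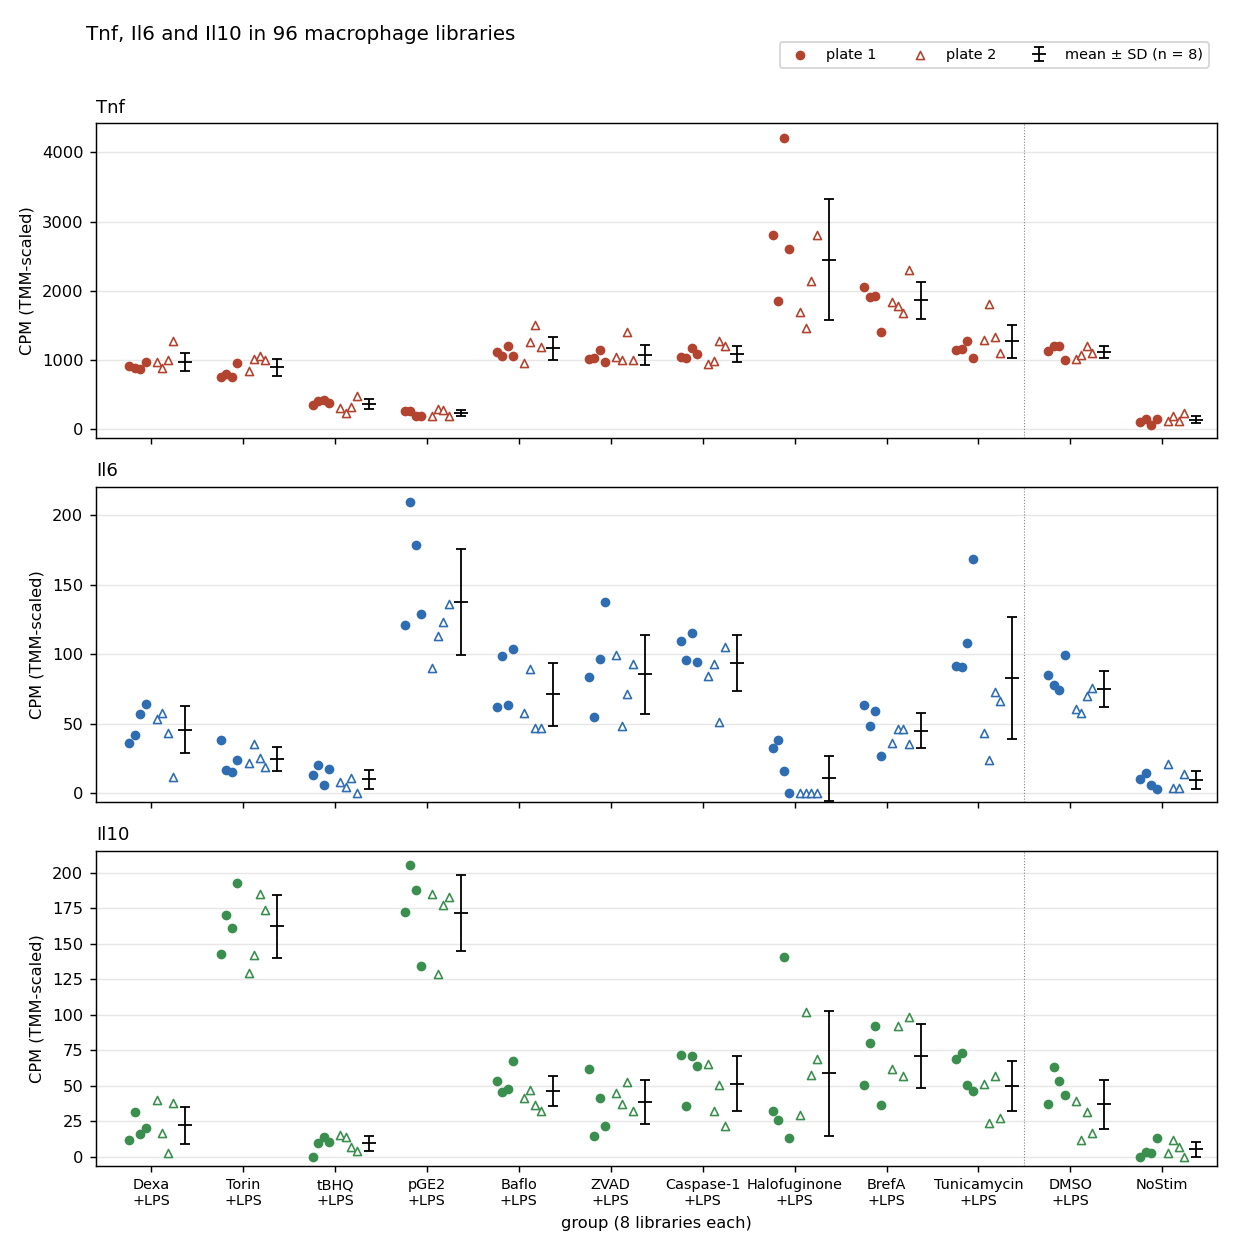
CPM of Tnf, Il6 and Il10 (linear axes) in every library of the 12 groups, circles for plate 1 and triangles for plate 2, with the mean and SD of 8 libraries beside each group. Tnf is lowest among LPS groups in pGE2 (mean 235 CPM), where Il6 (138 CPM) and Il10 (172 CPM) have their highest means.

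All 3 cytokines were higher in DMSO libraries with LPS than in NoStim libraries, with log2 fold changes between 2.79 and 2.97. Tnf had 1006, 1120 and 1204 CPM (lowest, median and highest) in DMSO libraries with LPS, against 66.8, 139 and 232 CPM in NoStim libraries. The groups did not overlap, and the log2 fold change was 2.97 ± 0.144 (SE, 8 libraries each, adjusted p = 3.076e-39, edgeR quasi-likelihood test with Benjamini-Hochberg adjustment over 4963 genes, used throughout with a threshold of 0.05). Il6 had 58.0, 74.9 and 99.1 CPM in DMSO libraries, against 3.26, 8.24 and 21.1 CPM in NoStim libraries. Its log2 fold change was 2.87 ± 0.298 (edgeR adjusted p = 1.060e-15), and again no library of one group reached the other. Il10 had 11.6, 38.2 and 63.0 CPM in DMSO libraries, against 0, 3.31 and 13.04 CPM in NoStim libraries. The Il10 groups overlapped at their edges, and the log2 fold change was 2.79 ± 0.407 (edgeR adjusted p = 2.726e-09). With LPS, 36.1% of all tested genes passed the threshold. Within the plates, fitted alone, the log2 fold changes on plate 1 and plate 2 were 3.24 and 2.72 for Tnf, 3.24 and 2.49 for Il6, and 3.18 and 2.21 for Il10. NoStim counts were small, with sums over 8 libraries of 346 for Tnf, 24 for Il6 and 12 for Il10.

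With pGE2, Tnf fell while Il6 and Il10 rose relative to DMSO. Tnf had 188, 230 and 300.4 CPM in pGE2 libraries, against 1006, 1120 and 1204 CPM in DMSO libraries, with a wide gap between the groups (log2 fold change −2.26 ± 0.138, edgeR adjusted p = 5.885e-30). Il10 had 129, 180 and 205 CPM in pGE2 libraries, all above the highest DMSO value of 63.0 CPM. This was a rise of 2.19 ± 0.231 on the log2 scale, or 4.56-fold (edgeR adjusted p = 1.406e-14). Il6 had 90.1, 126 and 209 CPM in pGE2 libraries, against 58.0, 74.9 and 99.1 CPM in DMSO libraries. The lowest pGE2 library stood inside the DMSO range, and the log2 fold change was 0.87 ± 0.199 (edgeR adjusted p = 4.913e-04). All 3 genes were thus among the 11.2% that passed with pGE2. Plates 1 and 2 alone gave −2.36 and −2.17 for Tnf, 1.79 and 2.74 for Il10, and 0.91 and 0.82 for Il6. The Il6 value of plate 2 did not pass on its own (adjusted p = 0.102, against 1.787e-05 to 0.102 over all alternatives).

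Torin raised Il10 and lowered Il6. Il10 had 129, 166 and 193 CPM in Torin libraries, against 11.6, 38.2 and 63.0 CPM in DMSO libraries, without overlap. The log2 fold change was 2.12 ± 0.238, or 4.33-fold (edgeR adjusted p = 3.595e-13), with 1.71 on plate 1 and 2.66 on plate 2. Il6 had 15.5, 22.8 and 38.5 CPM in Torin libraries, below every DMSO library (58.0 to 99.1 CPM). Its log2 fold change was −1.67 ± 0.278 (edgeR adjusted p = 6.283e-07), with −1.90 on plate 1 and −1.42 on plate 2. Tnf averaged 898 ± 124 CPM in Torin and 1117 ± 82.8 CPM in DMSO libraries (SD, n = 8 each), and its log2 fold change of −0.32 ± 0.127 did not pass (edgeR adjusted p = 0.07055). That Tnf value passed in 4 of 17 other settings, among them plate 1 alone (−0.50, adjusted p = 0.03079, over a range of 0.002308 to 0.7196). With Torin, 16.7% of tested genes passed, a count of 830 that was 543 without the G wells.

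tBHQ lowered all 3 cytokines. Tnf had 237, 365 and 487 CPM in tBHQ libraries, against 1006 to 1204 CPM in DMSO libraries, without overlap (log2 fold change −1.61 ± 0.133, edgeR adjusted p = 6.202e-21). Il6 had 0, 9.33 and 20.1 CPM in tBHQ libraries, and none reached the DMSO minimum of 58.0 CPM (log2 fold change −2.89 ± 0.308, edgeR adjusted p = 5.853e-15). Il10 had 0, 10.2 and 15.5 CPM in tBHQ libraries, against 11.6, 38.2 and 63.0 CPM in DMSO libraries, with a small overlap. Its log2 fold change was −1.94 ± 0.372 (edgeR adjusted p = 5.927e-06). In the same comparison, 36.4% of tested genes passed. On plate 1 and plate 2 alone the values were −1.56 and −1.69 for Tnf, −2.64 and −3.35 for Il6, and −2.46 and −1.25 for Il10. The last of these did not pass (edgeR adjusted p = 0.09915, over a range of 1.863e-07 to 0.09915 in all alternatives), on a plate whose DMSO mean was 24.7 CPM, against 49.2 CPM on plate 1.

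BrefA raised Tnf and Il10 and lowered Il6. Tnf had 1405, 1881 and 2304 CPM in BrefA libraries, all above the DMSO maximum of 1204 CPM (log2 fold change 0.74 ± 0.124, edgeR adjusted p = 6.497e-07). Il10 had 36.3, 70.8 and 98.6 CPM in BrefA libraries, against 11.6, 38.2 and 63.0 CPM in DMSO libraries (log2 fold change 0.92 ± 0.258, edgeR adjusted p = 0.004842). Il6 had 26.4, 46.0 and 63.4 CPM in BrefA libraries, against 58.0, 74.9 and 99.1 CPM in DMSO libraries (log2 fold change −0.74 ± 0.234, edgeR adjusted p = 0.01471). Both interleukins overlapped DMSO, and 17.3% of tested genes passed. Plates 1 and 2 gave 0.68 and 0.79 for Tnf, 0.36 and 1.62 for Il10, and −0.79 and −0.69 for Il6. Il10 did not pass on plate 1 (edgeR adjusted p = 0.6306, over a range of 0.0009903 to 0.6306). Mean Il10 on plates 1 and 2 was 64.8 and 77.2 CPM in BrefA, against 49.2 and 24.7 CPM in DMSO libraries. Il6 passed on neither plate, and without the H wells it was −0.49 (edgeR adjusted p = 0.2371, over a range of 0.005932 to 0.2429).

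Halofuginone raised Tnf and lowered Il6, and these libraries were the shallowest of the series. Tnf had 1465, 2374 and 4211 CPM in Halofuginone libraries, against 1006, 1120 and 1204 CPM in DMSO libraries, without overlap (log2 fold change 1.13 ± 0.129, edgeR adjusted p = 3.548e-13). Without TMM scaling, Tnf averaged 1710 and 1093 CPM in Halofuginone and DMSO libraries, and the groups overlapped. Halofuginone wells E and F of plate 2, at 1070 and 1072 CPM, then lay inside the DMSO range of 946 to 1323 CPM. Il6 had 6 counts in all over the 8 Halofuginone libraries, with none in 5 of them, and 157 counts in the DMSO libraries. Its log2 fold change was −2.74 ± 0.465 (edgeR adjusted p = 3.488e-07). All 4 plate 2 libraries of Halofuginone were at 0, where a count of 0 allows up to 3 counts at the 95% level for counting error alone, or 34.5 to 51.6 CPM in those 4 libraries. Il10 had 13.3, 45.0 and 140 CPM in Halofuginone libraries, spread across the DMSO range and above it (log2 fold change 0.60 ± 0.364, edgeR adjusted p = 0.1845). In this comparison 40.3% of tested genes passed, the median of all genes was −0.20 on the log2 scale, and the Rn45s share did not overlap between the groups. With Rn45s and Lars2 left out, the log2 fold changes were 1.17 for Tnf, −2.71 for Il6 and 0.64 for Il10. With the Rn45s share as a covariate they were 1.51 for Tnf, −2.90 for Il6 and 1.96 for Il10. The last then passed (edgeR adjusted p = 0.002144, over a range of 0.002144 to 0.9464). As the shares did not overlap, this fit extrapolates and cannot tell the compound from the Rn45s share. On plate 1 and plate 2 alone Tnf was 1.25 and 0.89 and Il10 was −0.065 and 1.34, and Il6 was −2.04 on plate 1.

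With the other 5 compounds none of the 3 genes passed against DMSO. Dexa gave log2 fold changes of −0.20 ± 0.125 for Tnf, −0.70 ± 0.23 for Il6 and −0.82 ± 0.315 for Il10 (edgeR adjusted p = 0.5707, 0.07165 and 0.1762), with 3.57% of genes past the threshold. The Il6 value for Dexa, 45.7 ± 16.8 CPM against 75.1 ± 13.1 CPM in DMSO libraries (SD, n = 8 each), passed only when the 2 groups were fitted without the others (−0.69, edgeR adjusted p = 0.04625, over a range of 0.04625 to 0.7149). Tunicamycin gave 0.18 ± 0.125 for Tnf, 0.13 ± 0.213 for Il6 and 0.41 ± 0.272 for Il10, with 4.37% of genes past the threshold. The 217 genes behind that share were 94 to 156 when 1 well letter was left out. Caspase-1 gave −0.033 ± 0.125, 0.32 ± 0.206 and 0.45 ± 0.265 for Tnf, Il6 and Il10, with 2.9% of genes, a count of 144 that fell to between 17 and 66 when any 1 well letter was left out. Baflo gave 0.065 ± 0.125, −0.095 ± 0.215 and 0.31 ± 0.272, and ZVAD gave −0.055 ± 0.124, 0.20 ± 0.207 and 0.051 ± 0.275 for the same genes. In these last comparisons 0% of tested genes passed by edgeR and 0 by DESeq2, while 373 (Baflo) and 176 (ZVAD) genes had an unadjusted edgeR p under 0.05.

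**Figure D2:**
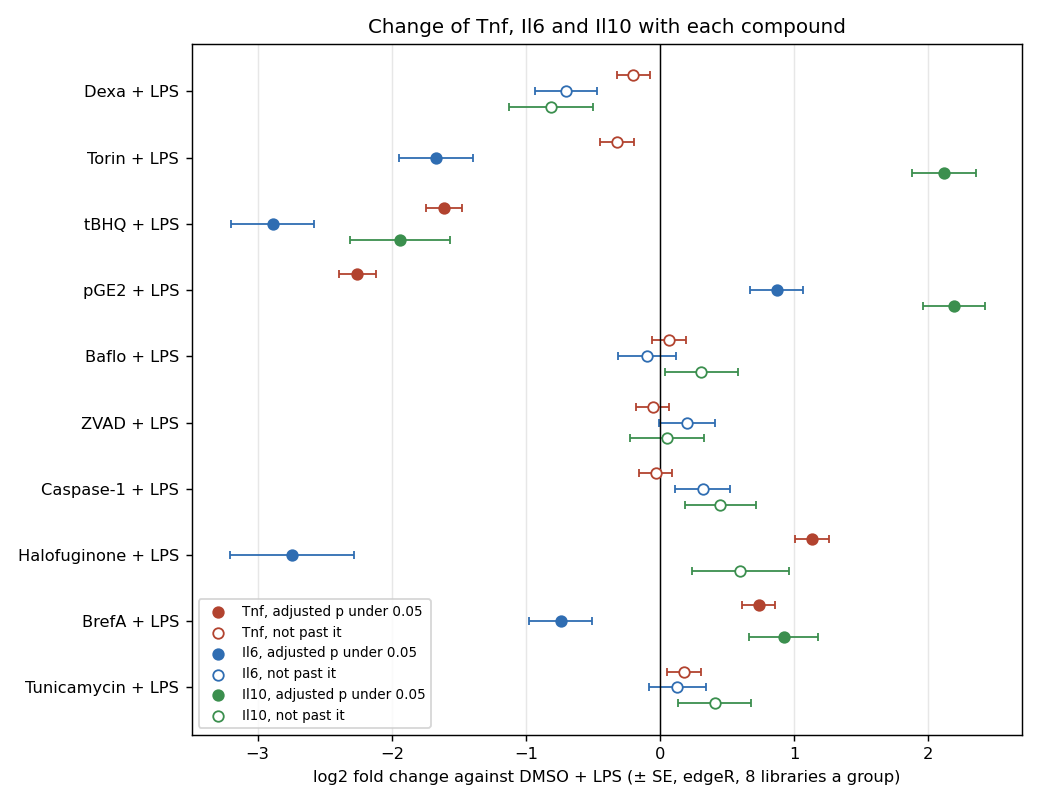
Log2 fold change of Tnf, Il6 and Il10 for each compound against DMSO, both with LPS, with the standard error of the edgeR fit (8 libraries a group), filled where the adjusted p was under 0.05. tBHQ has all 3 filled points left of 0, pGE2 has Tnf at −2.26 and Il10 at 2.19, and Dexa, Baflo, ZVAD, Caspase-1 and Tunicamycin have open points only.

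Set against cells that never received LPS, Tnf was higher in all 10 compound groups, Il6 in 8 and Il10 in 9. The shares of all tested genes past the threshold in these comparisons were 35.6% for Dexa, 40.4% for Torin, 8.3% for tBHQ, 34.2% for pGE2, 34% for Baflo, 36.9% for ZVAD, 35.6% for Caspase-1, 54.2% for Halofuginone, 37.3% for BrefA and 36.3% for Tunicamycin. Il6 did not pass with tBHQ (9.93 ± 6.74 CPM against 9.58 ± 6.51 CPM in NoStim, log2 fold change −0.022 ± 0.448, edgeR adjusted p = 0.9855). Neither did Il6 with Halofuginone (10.8 ± 16.2 CPM, 0.12 ± 0.649, edgeR adjusted p = 0.8856) nor Il10 with tBHQ (9.41 ± 5.34 CPM against 5.20 ± 5.01 CPM in NoStim, 0.86 ± 0.534, edgeR adjusted p = 0.3994). On the log2 scale, Tnf with pGE2 was 0.72 ± 0.152 above NoStim (edgeR adjusted p = 4.249e-05), and with tBHQ 1.36 ± 0.148 above it (edgeR adjusted p = 2.937e-13). On that scale Il10 stood 4.98 ± 0.318 above NoStim with pGE2 and 4.91 ± 0.326 with Torin (edgeR adjusted p = 1.612e-30 and 5.444e-29). These comparisons share their NoStim libraries.

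Expressed as a share of the difference between the DMSO and NoStim means, which are held fixed here, Tnf kept 9.51% ± 4.74 with pGE2 and 22.8% ± 7.89 with tBHQ (SD, n = 8 each). Torin kept 77.6% ± 12.7 of the Tnf difference, BrefA 177% ± 27.1 and Halofuginone 237% ± 89.8. Il6 kept 0.54% ± 10.3 with tBHQ, 1.89% ± 24.8 with Halofuginone, 22.8% ± 12.8 with Torin, 54.2% ± 18.9 with BrefA and 195% ± 58.4 with pGE2. Dexa, where Il6 did not pass against DMSO, kept 55.1% ± 25.6 of the Il6 difference. Il10 kept 13.3% ± 16.8 with tBHQ, 207% ± 71.7 with BrefA, 494% ± 70.7 with Torin and 524% ± 83.8 with pGE2. The same compound could therefore stand at opposite ends for different cytokines, as pGE2 did for Tnf and Il10.

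Ordered by mean CPM, Tnf ran from Halofuginone (2450 CPM) through BrefA (1863), Tunicamycin (1270), Baflo (1169), DMSO (1117), Caspase-1 (1092), ZVAD (1076), Dexa (974), Torin (898), tBHQ (365) and pGE2 (235) to NoStim (142 CPM). Of the 11 neighbouring pairs, 5 differed by the edgeR test, and the 6 from Tunicamycin down to Torin did not. Pooled over those 11 pairs, 17.3% of all gene tests passed. Il6 ran from pGE2 (138 CPM) through Caspase-1 (93.5), ZVAD (85.5), Tunicamycin (83.1), DMSO (75.1), Baflo (71.0), Dexa (45.7), BrefA (45.1), Torin (24.5), Halofuginone (10.8) and tBHQ (9.93) to NoStim (9.58 CPM). Only pGE2 above Caspase-1 (log2 difference 0.55 ± 0.189, edgeR adjusted p = 0.02537) and BrefA above Torin (0.93 ± 0.301, edgeR adjusted p = 0.01417) differed among its 11 neighbouring pairs, where 15.8% of all gene tests passed. With same-named wells summed, pGE2 and Caspase-1 no longer differed past the threshold (edgeR adjusted p = 0.05484). Il10 ran from pGE2 (172 CPM) through Torin (162), BrefA (71.0), Halofuginone (58.7), Caspase-1 (51.5), Tunicamycin (49.9), Baflo (46.3), ZVAD (38.3), DMSO (36.96), Dexa (22.2) and tBHQ (9.41) to NoStim (5.20 CPM). Only Torin above BrefA (log2 difference 1.20 ± 0.216, edgeR adjusted p = 3.631e-06) and Dexa above tBHQ (1.12 ± 0.411, edgeR adjusted p = 0.02311) differed, against 17% of all gene tests in those pairs. pGE2 and Torin, at the head of the Il10 order, did not differ past the threshold (log2 difference 0.074 ± 0.194, edgeR adjusted p = 0.8302).

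Ratios of counts within a library do not depend on how libraries are scaled, and 3′-end counts are not spread over transcript length, so changes of ratio between groups were compared. Between DMSO libraries with LPS and NoStim libraries none of the 3 ratios differed past the threshold. Exact two-sided permutation tests of 8 against 8 libraries were used, adjusted over 33 tests. Their adjusted p was 0.7758 for Tnf over Il10, 0.8607 for Il6 over Il10 and 0.9045 for Tnf over Il6. In NoStim libraries these log2 ratios were 4.72 ± 1.33, 0.92 ± 1.93 and 3.80 ± 0.995 in that order (SD, n = 8). Their SDs in DMSO libraries were 0.742, 0.682 and 0.264. The NoStim ratios rest on sums of 24 Il6 and 12 Il10 counts, so these tests could miss a change of ratio with LPS. The log2 ratio of Tnf to Il10 was 0.44 ± 0.398 with pGE2 and 2.45 ± 0.214 with Torin, against 4.996 ± 0.742 in DMSO libraries (SD, n = 8 each, 0.5 added to each count). Summed over libraries, Tnf counts exceeded Il10 counts 1.36-fold with pGE2, 5.42-fold with Torin, 29.7-fold with DMSO and 28.8-fold in NoStim. Both drops had the smallest p that these permutations allow, 0.0001554, and an exact permutation adjusted p of 0.0005698, and no pGE2 or Torin library reached the DMSO range of 4.22 to 6.31. With same-named wells summed to 4 values a group, the 11 ratio differences called here and below kept their direction and had an exact permutation adjusted p of 0.06735, past the threshold in none. The smallest exact permutation p for 4 against 4 values is 0.0286 before adjustment over 33 tests. A ratio could therefore hardly pass in that setting, and the lost calls do not tell whether the differences hold. On plate 1 and plate 2 the differences were −4.14 and −4.98 for pGE2 and −2.22 and −2.87 for Torin. No other compound moved this ratio past the threshold. Il10 counts summed over 8 libraries were only 20 with tBHQ, 31 with Halofuginone and 46 with Dexa. The log2 ratios there had SDs of 1.23, 0.975 and 1.04, so these tests could miss a change.

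Il6 over Il10 fell with 4 compounds. The log2 ratio averaged −2.66 ± 0.551 with Torin, −0.34 ± 0.346 with pGE2, −0.61 ± 0.51 with BrefA and −2.05 ± 1.57 with Halofuginone, against 1.12 ± 0.682 in DMSO libraries (SD, n = 8 each). The exact permutation adjusted p was 0.0005698 for Torin and pGE2, 0.001026 for BrefA and 0.001399 for Halofuginone. Il10 counts exceeded Il6 counts in 8 of 8 Torin libraries, 7 of 8 pGE2, 7 of 8 BrefA, 6 of 8 Halofuginone and 0 of 8 DMSO libraries. Tnf over Il6 rose with Halofuginone (7.48 ± 1.17), BrefA (5.34 ± 0.355), tBHQ (5.20 ± 1.19) and Torin (5.11 ± 0.449), against 3.87 ± 0.264 in DMSO libraries. It fell to 0.78 ± 0.471 with pGE2, and all 5 differences had an exact permutation adjusted p of 0.0005698. In Halofuginone 5 of 8 libraries have an Il6 count of 0, so the size of its Il6 ratios depends on the 0.5 added. The tBHQ ratios rest on 21 Il6 counts over 8 libraries, with a count of 0 in 1 of them. Without the H wells, the tBHQ difference in Tnf over Il6 was 0.94, against 1.33 with all wells, and still passed.

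**Figure D3:**
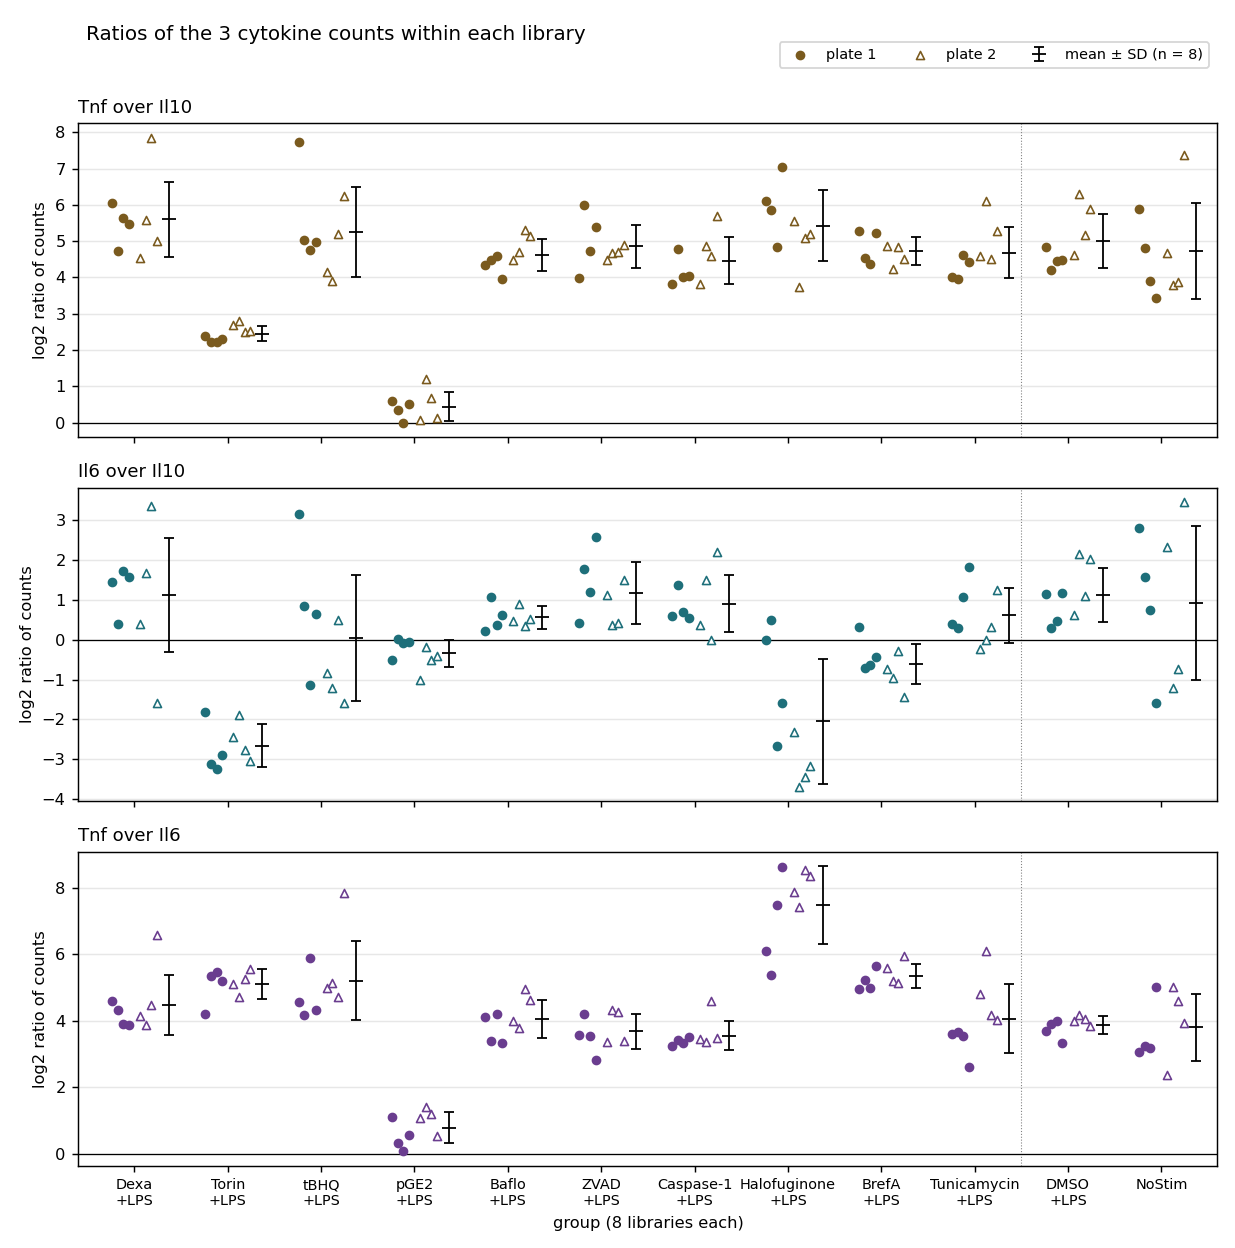
Log2 ratio of Tnf to Il10, Il6 to Il10 and Tnf to Il6 counts (0.5 added to each) in every library of the 12 groups, circles for plate 1 and triangles for plate 2, with mean and SD of 8 libraries. The Torin and pGE2 points of Tnf over Il10 (means 2.45 and 0.44) lie below all DMSO points (mean 4.996).

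Plate 2 libraries had less Il6 than plate 1 libraries across the model (48.2 against 67.0 CPM, log2 difference −0.43 ± 0.1, edgeR adjusted p = 9.708e-04). The plate term passed in either direction for 718 of 4963 tested genes, Il6 among them. The plate term did not pass for Tnf (0.067 ± 0.053, edgeR adjusted p = 0.4223) or Il10 (−0.16 ± 0.11, edgeR adjusted p = 0.3543). In DMSO libraries, shared by all compound comparisons, mean Il10 was 49.2 CPM on plate 1 and 24.7 CPM on plate 2. In that order it was 175 and 168 CPM with pGE2 and 167 and 157 CPM with Torin. The biological coefficient of variation in the fit was 16.7% for Tnf, 18.0% for Il6 and 19.2% for Il10, against a median of 18.9% over tested genes.

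Genes that act with the cytokines were read from 5 lists. Jak1, Tyk2, Stat3 and Socs3 stand on both the IL-6 and the IL-10 list, so the counts of these lists are not independent. With LPS, where 36.1% of all tested genes passed in either direction, 5 of the 9 tested TNF pathway genes rose and none fell (list median 0.92 on the log2 scale, against −0.036 for all tested genes), among them Nfkbia, the NF-kB inhibitor (3.07 ± 0.109), and Tnfaip3, which ends NF-kB signalling (1.70 ± 0.221). Of 8 IL-6 pathway genes, 4 rose and 1 fell (median 0.50), with the feedback inhibitor Socs3 at 3.58 ± 0.175 and the receptor chain Il6ra at −1.46 ± 0.235. Of 11 IL-10 pathway genes, 8 rose and 1 fell (median 1.16), including the NF-kB cofactor Bcl3 (2.23 ± 0.267) and Il1rn, the interleukin-1 receptor antagonist (1.69 ± 0.167). Of 19 transcription regulators, 11 rose and 2 fell (median 0.61), with Irf1 at 3.31 ± 0.187, Nfkbiz, a cofactor for Il6 transcription, at 3.08 ± 0.193, and Fos at −3.06 ± 0.274. Of 11 genes for messenger decay and stability, 3 rose and 3 fell (median 0.24). Zfp36l2 (−3.46 ± 0.281) and Zfp36l1 (−2.79 ± 0.254), relatives of Zfp36 that bind AU-rich elements, fell, while Arid5a, which stabilises Il6 messenger, rose (2.03 ± 0.346).

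With pGE2, where 11.2% of all tested genes passed in either direction, 1 of the 9 TNF pathway genes did, the protease gene Adam17 that releases TNF from the cell surface (−0.37 ± 0.124). Adam17 no longer passed with same-named wells summed (edgeR adjusted p = 0.06455), and 15 of the 20 listed genes called with pGE2 did. Of the 11 IL-10 pathway genes, 4 rose and none fell (median 0.35, against 0.0028 for all genes): Il1rn (1.60 ± 0.146), Il4ra (1.32 ± 0.168), Nfil3 (1.25 ± 0.199) and Stat3 (0.82 ± 0.138), the factor through which IL-10 signals. Stat3 was also the 1 of 8 IL-6 pathway genes that rose, as it stands on both lists. Among 19 transcription regulators 3 rose and 9 fell, with Irf8 at −2.54 ± 0.147, Fos at 2.19 ± 0.29, Atf3 at −1.58 ± 0.167 and Fosl2 at 1.47 ± 0.182. Of the 11 decay genes 3 rose, led by Zfp36l2 (1.99 ± 0.317). With Torin, where 16.7% of all tested genes passed, 1 of 11 IL-10 pathway genes passed, Il4ra at −0.56 ± 0.186, and 1 of 8 IL-6 pathway genes, the shared receptor chain Il6st at 1.003 ± 0.357. TNF receptor 1 (Tnfrsf1a) fell (−1.17 ± 0.229) and Nfkbia rose (0.52 ± 0.0988) among 9 TNF pathway genes. Of 19 regulators 4 rose and 4 fell, with Jun at 0.98 ± 0.296 and Atf3 at 0.83 ± 0.146, and of 11 decay genes 3 rose, led by Zfp36l2 (1.95 ± 0.332). With same-named wells summed, 11 of the 15 listed genes called with Torin still passed. Il10 thus rose with both compounds, while 4 and 0 of its 11 pathway genes rose with pGE2 and Torin, a difference in counts that was not tested.

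The shares of all tested genes that passed in either direction were 36.4% with tBHQ, 17.3% with BrefA and 40.3% with Halofuginone. tBHQ lowered 5 of 9 TNF pathway genes (median −0.79, against 0.044 for all genes), 4 of 8 IL-6 pathway genes and 9 of 11 IL-10 pathway genes (median −1.33), led by Nfkbia (−3.11 ± 0.109), Socs3 (−3.48 ± 0.177) and Bcl3 (−2.79 ± 0.295). Of 19 regulators it lowered 12, with Irf1 at −2.56 ± 0.177, and raised 4, with Fos at 3.41 ± 0.271. Zfp36l2 (3.59 ± 0.281) and Zfp36l1 (2.75 ± 0.256) were the 2 of 11 decay genes that rose, and 4 fell. BrefA lowered 9 of 11 IL-10 pathway genes and raised none (median −0.81, against 0.0080), with Il4ra at −1.96 ± 0.205 and Socs3 at −1.33 ± 0.146, although Il10 itself rose. It lowered 4 of 8 IL-6 pathway genes, 1 of 9 TNF pathway genes (Tnfrsf1a, −0.99 ± 0.215), 5 of 19 regulators and 2 of 11 decay genes, Arid5a (−2.75 ± 0.401) and Zfp36 (−0.88 ± 0.144). Halofuginone raised 5 and lowered 1 of 9 TNF pathway genes (median 0.49, against −0.20 for all genes) and lowered 7 of 11 IL-10 pathway genes (median −1.06). It raised 2 and lowered 3 of 8 IL-6 pathway genes, and Bcl3 was at −2.47 ± 0.42. Of 19 regulators 8 rose and 3 fell, with Jun at 4.45 ± 0.258, Fos at 3.89 ± 0.292 and Irf8 at −3.20 ± 0.211. It raised 5 of 11 decay genes, among them Zfp36l1 (1.90 ± 0.35) and Zfp36 (1.62 ± 0.141).

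With Dexa 3.57%, with Tunicamycin 4.37% and with Caspase-1 2.9% of all tested genes passed in either direction. Dexa lowered Socs3 (−0.56 ± 0.139), on the lists of 8 IL-6 and 11 IL-10 pathway genes, and Il1rn (−0.56 ± 0.156), on the IL-10 list. Of 19 regulators Dexa lowered 3, among them Irf8 (−2.56 ± 0.148) and Atf3 (−0.84 ± 0.157), and raised 1, Fos (1.61 ± 0.305). Tunicamycin raised 1 of 9 TNF pathway genes, Nfkbia (0.43 ± 0.0986). Of 19 regulators it raised 2, Cebpb (1.23 ± 0.198) and Cebpd (0.81 ± 0.182), and lowered 2, Irf8 (−1.40 ± 0.135) and Maf (−0.49 ± 0.137). Caspase-1 raised 1 of 11 IL-10 pathway genes, Bcl3 (0.75 ± 0.204), and lowered 2 of 19 regulators, Irf8 (−0.86 ± 0.129) and Maf (−0.47 ± 0.135). With same-named wells summed, Maf no longer passed with Tunicamycin (edgeR adjusted p = 0.06084) or Caspase-1 (edgeR adjusted p = 0.09571). With Baflo and ZVAD no listed gene passed by edgeR.

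Across the 12 group means, the 3 members followed different courses. The Pearson correlation of mean log2 CPM was 0.15 between Tnf and Il6, 0.31 between Tnf and Il10, and 0.49 between Il6 and Il10 (Spearman −0.0070, 0.27 and 0.38). Without NoStim, over the 11 LPS groups, the Pearson values were −0.21, −0.089 and 0.34. These are descriptions over groups that share libraries' plates and scaling. Among 4962 other genes, those most like Tnf were the complement gene C3 (r = 0.98), Apobr (0.96), Pvr (0.95), Ptpn12 (0.94) and the chemokine gene Ccl9 (0.94). Those most like Il6 were Cdc42ep2 (0.97), Ccnd2 (0.94), Il1b (0.93), Tpst1 (0.93) and Stard7 (0.92), with Il1b, the gene of the inflammatory cytokine interleukin-1 beta, at 2486 CPM in DMSO and 151 CPM in NoStim libraries. Those most like Il10 were Pdpn (0.97), Cdc42ep4 (0.94), Mcoln2 (0.91), B4galt5 (0.90) and P2ry2 (0.90). Some of these rest on few groups, as the Spearman value of Ptpn12 with Tnf was 0.57 over the same 12 groups.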

How the data were processed

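Per the labels' protocols, RNA was purified from macrophage lysates, reverse transcribed and tagmented in a changed SCRB-Seq procedure that enriches transcript 3′ ends. The deposited values are raw counts for each gene symbol. The submitters' processing notes name BWA and the mm10 build. No version, annotation, gene filter, strand setting or collapsing of PCR copies is stated, so counts may not be independent molecules. Of 23481 genes, 7459 had no count. Groups were taken from the labels.

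All 96 libraries were fitted in one edgeR 4.0.16 model (R 4.3.3) with group and plate, TMM scaling, filterByExpr and robust quasi-likelihood F tests, two-sided, with Benjamini-Hochberg adjustment over 4963 genes and a threshold of 0.05. Comparisons were DMSO against NoStim and each compound against DMSO and against NoStim. Ratios of counts within a library (0.5 added) were compared by exact permutation. Correlations used log2 CPM with a prior count of 2. The code was tested on simulated data. DESeq2 1.42.0 and the other settings described at the end were alternatives. No 2 libraries were identical. Same-named wells were checked for pairing: deviations of the same group and letter on plate 1 and plate 2 had a mean r of 0.249 (1214 genes), over 0.1 in 10 of 12 groups, so these libraries may not be independent, and the tests of the members, ratios, neighbouring groups and listed genes were also run with those wells summed. Wells of the same plate and letter in other groups had a mean r of 0.0756 and were not used as a block. Plots used matplotlib 3.10.9.

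The members and lists were chosen with earlier results of these data known. Named genes are the 3 members, the 5 genes most correlated with each, up to 4 genes per list and comparison with the largest fold changes past the threshold, and Rn45s and Lars2. Genes on both the IL-6 and the IL-10 list are also named. Cell type markers are named apart from this rule and were chosen after their values were seen. They are the 3 most abundant macrophage markers, the marker with the most counts of each other list, and defining markers with no count.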

Additional observations from a re-analysis of the deposited data

Results flagged for a closer look

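A library was flagged where its gap to the nearest of the other 7 in its group, divided by the range of the group, was above Dixon's critical value, which chance gives in about 1 of 20 groups. Of 72 groups of values (3 genes and 3 ratios in 12 groups), 7 were flagged, and all 7 values came from plate 2 libraries. For Tnf, the Dexa well H stood at 1275 CPM, the next library at 1006. ZVAD well G stood at 1406 CPM, the next at 1141, and Tunicamycin well F at 1817 CPM, the next at 1331. For the log2 ratio of Tnf to Il10, Dexa well G stood at 7.85, the next at 6.04, with an Il10 count of 1. For the log2 ratio of Tnf to Il6, Dexa well H stood at 6.58, the next at 4.60, with an Il6 count of 3, and tBHQ well H at 7.84, the next at 5.89, with an Il6 count of 0. Caspase-1 well G stood at 4.60, the next at 3.50. Against DMSO, Dexa, ZVAD, Tunicamycin and Caspase-1 had no Tnf change past the threshold with these libraries included.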

How the results depend on the processing

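Against DMSO or, for LPS, NoStim, 547 of 570 values of the 3 genes under other settings kept direction and side of the threshold, as did 588 of 600 against NoStim and 254 of 312 ratio values. No called result changed direction, but 11, 10 and 23 values that did not pass changed sign and still did not pass. Il10 with BrefA on plate 1 (0.36), Il10 with tBHQ on plate 2 (−1.25), Il6 with BrefA on plate 1 (−0.79) and plate 2 (−0.69) and Il6 with pGE2 on plate 2 (0.82) no longer passed, with 4 libraries a group in place of 8. Il6 with BrefA ran from −0.81 to −0.49 when a well letter was left out, and lost its call without H. Il10 with Halofuginone was newly past the threshold with the Rn45s share as a covariate (1.96), a share that did not overlap between Halofuginone and DMSO. Il6 with Dexa was newly past it when fitted with DMSO alone (−0.69). So was Tnf with Torin with no filter (−0.35), on plate 1 (−0.50), with the groups alone (−0.33) and with a replicate block of plate and letter (−0.31, edgeR adjusted p = 0.03474). With same-named wells summed, all 16 called values of the 3 genes against DMSO or, for LPS, NoStim and all 27 against NoStim kept call and direction, as did 155 of 171 calls of listed genes and 8 of 9 of neighbouring groups. The block could be fitted only among E to H wells, whose numbers did not pair the samples, and it changed no other call of a member. Against NoStim, Il6 with Torin (1.08) and Tnf with pGE2 (0.55) did not pass on plate 2. The cause was not tested.

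The sign changes among values that did not pass were, on plate 1, Il10 with Halofuginone (−0.065) and ZVAD (−0.49), Tnf with Baflo (−0.020), and Il6 with tBHQ against NoStim (0.60). On plate 2 they were Il6 with Tunicamycin (−0.31), Tnf with Caspase-1 (0.010) and ZVAD (0.029), and Il6 with Halofuginone against NoStim (−4.58, with no Il6 count in Halofuginone there). Tnf with Caspase-1 was 0.0044 with RLE scaling and 0.0044 with DESeq2. Against NoStim, Il6 with Halofuginone was −0.11 with no filter and −0.048 with the Rn45s share as a covariate, and Il6 with tBHQ was 0.0037 with no plate term. Leaving out a letter gave −0.13 to 0.18 for Il10 with ZVAD, −0.30 to 0.027 for Il6 with Baflo and −0.077 to 0.0048 for Tnf with Caspase-1, and, against NoStim, −0.41 to 0.47 for Il6 with Halofuginone and −0.26 to 0.30 for Il6 with tBHQ. For Il6 over Il10, plate 1 gave 0.036 with Caspase-1, −0.12 with LPS, 0.12 with tBHQ and 0.13 with Tunicamycin, plate 2 gave −0.51 with Dexa and −0.63 with ZVAD, and 1 added to each count gave −0.024 with Dexa. For Tnf over Il10, plate 1 gave 0.35 with BrefA, −0.012 with LPS and 0.53 with ZVAD, and plate 2 gave −0.61 with Halofuginone and −0.62 with tBHQ. For Tnf over Il6 with Tunicamycin, plate 1 gave −0.38 and leaving out the plate 2 well F gave −0.099. Leaving out a letter gave, for Il6 over Il10, −0.58 to 0.54 with Dexa, −0.11 to 0.75 with LPS and −0.077 to 0.12 with ZVAD, for Tnf over Il10, −0.0027 to 0.50 with LPS and −0.067 to 0.60 with tBHQ, and for Tnf over Il6, −0.29 to 0.30 with LPS and −0.024 to 0.35 with Tunicamycin.

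With 4 against 4 values the smallest exact permutation p is 0.0286. After adjustment over 33 tests none of the 11 called ratios passed on plate 1, on plate 2 or with same-named wells summed, where the lowest adjusted p were 0.09429, 0.07857 and 0.06735. In that order the log2 differences were −4.14, −4.98 and −4.41 for Tnf over Il10 with pGE2 and −2.22, −2.87 and −2.41 with Torin. For Il6 over Il10 they were −3.54, −4.02 and −3.69 with Torin, −0.92, −2.01 and −1.32 with pGE2, −1.13, −2.34 and −1.65 with BrefA, and −1.71, −4.64 and −3.20 with Halofuginone. For Tnf over Il6 they were 1.32, 1.15 and 1.28 with Torin, 1.01, 1.65 and 1.18 with tBHQ, −3.22, −2.97 and −3.09 with pGE2, 3.17, 4.03 and 3.79 with Halofuginone, and 1.48, 1.46 and 1.496 with BrefA. Leaving out a letter gave −0.67 to −0.40 for Il6 over Il10 with Baflo and −0.41 to −0.22 for Tnf over Il6 with Caspase-1, passing without F and without G.

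Counts of genes past the threshold moved by over 1.5 times in 48 of 390 cases. The lowest and highest were 5 to 378 around 217 for Tunicamycin, 3 to 350 around 144 for Caspase-1, 48 to 213 around 177 for Dexa, 328 to 935 around 830 for Torin, 487 to 923 around 860 for BrefA, 253 to 705 around 555 for pGE2, 1114 to 2050 around 1807 for tBHQ, 818 to 2346 around 2000 for Halofuginone, 882 to 2069 around 1790 for LPS and 0 to 8 around 0 for Baflo. Against NoStim the lowest counts were 111 around 412 for tBHQ, 857 around 1765 for Dexa, 928 around 1695 for pGE2, 919 around 1832 for ZVAD, 934 around 1804 for Tunicamycin, 1005 around 2003 for Torin, 1011 around 1851 for BrefA, 1016 around 1689 for Baflo and 1044 around 1768 for Caspase-1, each on plate 2 alone, and 1058 around 2688 for Halofuginone with the Rn45s share as a covariate. RLE scaling moved the median of all genes to −0.19 for LPS and 0.19 for tBHQ, against −0.036 and 0.044 with TMM. Depth limits Il6 and Il10 most, with 24 Il6 and 12 Il10 counts over the NoStim libraries and 6 Il6 counts in Halofuginone.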
